A study of Equus caballus with 6 samples.

Results

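INSL3 and the relaxin peptide family were followed in the testes of 6 adult stallions. The family was taken as 7 genes, INSL3, INSL6, RLN1, RLN2 and RLN3 for the peptides and RXFP1 and RXFP2 for their receptors. Members were the spots whose array annotation names exactly 1 of these symbols, which gave 9 of the 53423 gene probes of each array. They cover 6 of the 7 genes, out of 18278 genes with a probe of their own on the array, with 2 probes for INSL3, 3 for RXFP1 and 1 each for INSL6, RLN2, RLN3 and RXFP2, and RLN1 has none here. The family was selected on the measured dexamethasone against saline difference of INSL3 in these data, so the members' differences are given as a description with no test.

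All 6 stallions had been kept at the clinic for 10 days. Of these, 3 received 0.1 mg/kg dexamethasone intravenously, a synthetic agonist of the glucocorticoid receptor, and 3 controls received as much saline. The testes were taken 12 h later, and total RNA of minced testicular parenchyma from each stallion was read on 1 human array, so that horse transcripts bound probes designed for human ones. The animals are numbered 1 to 3 within each group here, which are not the animal numbers of the deposited sample titles. The sources used here state neither breed nor age in years, nor which testis was sampled.

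INSL3 is a small peptide hormone of the insulin superfamily that Leydig cells, the steroid-producing cells between the seminiferous tubules, secrete in large amounts. It acts through RXFP2, a G protein-coupled receptor that raises cAMP, and is known for guiding the descent of the testis before birth and as a measure of the state of Leydig cells in adults. Relaxin, the peptide of RLN1 and RLN2 in humans, acts mainly through RXFP1, RLN3 is best known as a brain peptide, and INSL6 is made by male germ cells. RefSeq's horse genes of assembly TB-T2T include INSL3, INSL6, RLN3, RXFP1 and RXFP2 under these symbols. RLN1 and RLN2 are not among them, and a single gene named RLN lies next to INSL6, which has JAK2 on its other side. INSL3 lies there between B3GNT3 and JAK3.

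The arrays were similar in depth of signal. Median spot intensities of 72.6 to 79.4 stood above median backgrounds of 47 to 50. Gene probes above background made up 44.6% to 47.8% in controls and 42.5% to 46.3% in treated stallions, ranges that overlap but lie somewhat higher in controls. Of the 53423 gene probes, 24590 were above background on at least 3 arrays and entered the comparison. Markers of the cells of the testis were detected. The fit covered 8 of 11 Leydig cell markers with a probe, 9 of 10 Sertoli cell markers and 7 of 10 germ cell markers, but only 2 of 4 peritubular myoid, 2 of 5 macrophage and 3 of 5 endothelial markers. Human probes can bind a horse transcript poorly, so a low signal does not show low expression. The number of arrays limits the precision throughout.

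Detection split the family. Both INSL3 probes, the INSL6 probe, the RXFP2 probe and 1 of 3 RXFP1 probes were above background on all 6 arrays, and the other 4 probes, RLN2, RLN3 and the remaining RXFP1 probes, on 0. A spot is called above background when its quality flag lacks the letters for low or missing signal, and spots with the low flag had a spot mean no higher than their own noise level. The ratio of spot mean to noise was 4.74 to 22.7 for the brighter INSL3 probe (149073, called probe A here) and 4.85 to 14.3 for the other (405051, probe B). It was 1.64 to 2.08 for INSL6, 1.40 to 2.06 for RXFP2 and 1.08 to 1.29 for the detected RXFP1 probe. The last 3 probes were thus above background by a narrow margin, and RXFP1 by the narrowest.

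**Figure D1:**
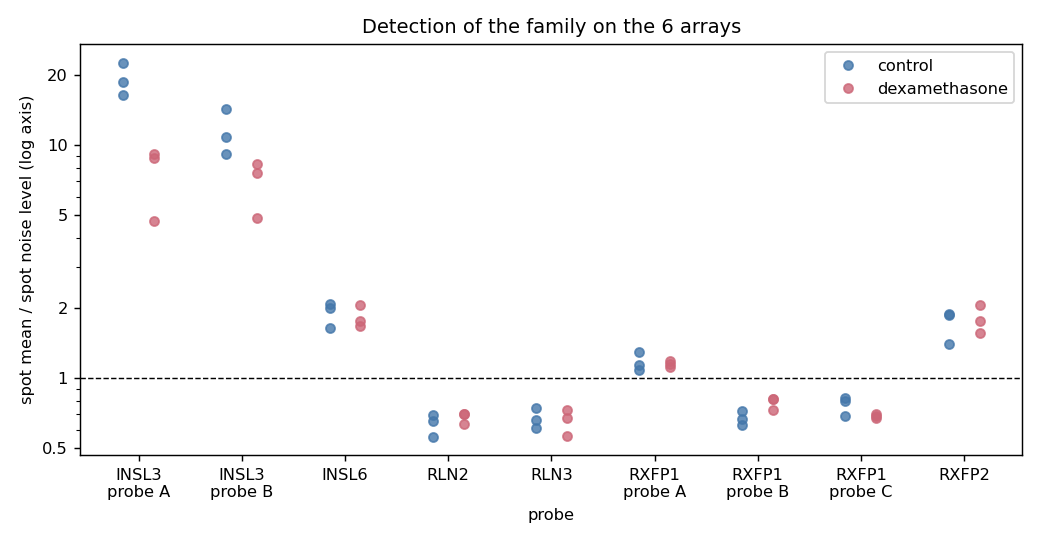
Ratio of spot mean to spot noise level (log axis) for each of the 9 family probes, with 1 point per stallion and the groups in colour. The dashed line at 1 marks the noise level. Both INSL3 probes lie at 4.74 or more, while RLN2, RLN3 and 2 RXFP1 probes lie between 0.560 and 0.818 in every animal.

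INSL3 was lower in the dexamethasone stallions, and its 2 probes differed in how much lower they were. Values are first given as the authors' scaled intensity, in which the background-subtracted intensity is divided by 1 constant per array and the array median is about 1. After quantile normalisation the median log2 difference of dexamethasone minus control over all probes tested was -0.01, against -0.07 with the scaled intensities. On this scale probe A read 61.5, 47.0 and 61.4 in control stallions 1, 2 and 3, and 12.6, 26.9 and 30.5 in dexamethasone stallions 1, 2 and 3. All 3 treated animals lay below all 3 controls, and treated stallion 1 lay well below the other two. The group means were 23.3 ± 9.44 with dexamethasone and 56.6 ± 8.35 in controls (SD, n = 3 each), a 2.43-fold lower mean after dexamethasone. In parenchyma, fewer Leydig cells and less INSL3 RNA per cell cannot be told apart.

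Probe B read 36.4, 25.4 and 34.1 in the controls and 12.1, 24.6 and 27.3 in the treated stallions, in the same order of animals. Here the groups overlapped, since treated stallion 3 lay above control 2 and treated stallion 2 just below it. The means were 21.3 ± 8.13 with dexamethasone and 32.0 ± 5.80 in controls (SD, n = 3 each), 1.5-fold lower after dexamethasone. Within each group the animals ranked in the same order on both probes on this scale, while on the normalised log2 scale the close controls 1 and 3 changed places on probe A.

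**Figure D2:**
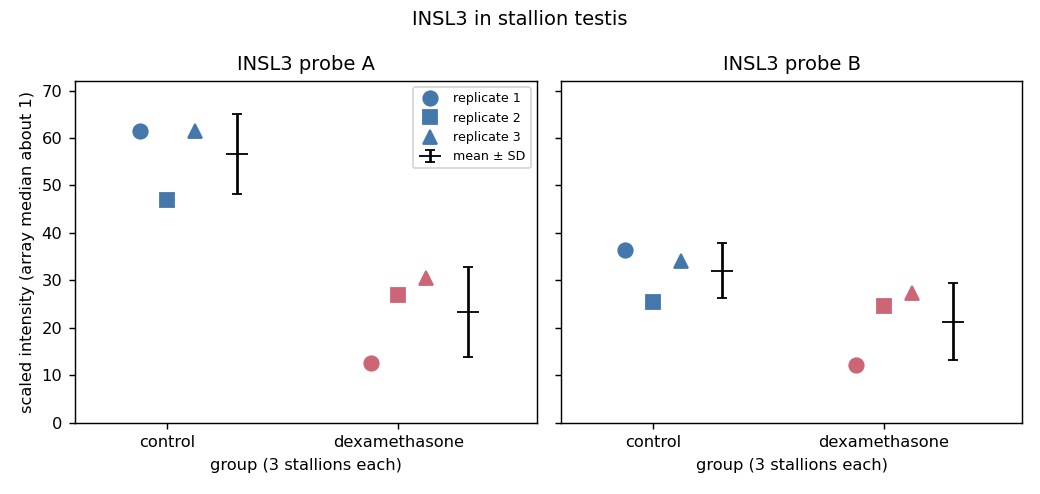
Scaled intensity (linear axis from 0, array median about 1) of INSL3 probes A and B in 3 control and 3 dexamethasone stallions, with the marker shape giving the replicate and bars the mean ± SD. On probe A the treated animals (12.6 to 30.5) lie below the controls (47.0 to 61.5), and on probe B the groups overlap.

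On the log2 scale after background correction and quantile normalisation, the difference of dexamethasone minus control was -1.21 ± 0.23 for probe A and -0.52 ± 0.22 for probe B (SE from limma's fit of all probes). The 95% intervals ran from -1.72 to -0.70 for probe A and from -1.02 to -0.03 for probe B. Log2 levels of probe A were 9.34 ± 0.55 with dexamethasone and 10.54 ± 0.18 in controls, and those of probe B 9.23 ± 0.52 and 9.75 ± 0.23 (SD, n = 3 each). The spread among treated animals came largely from treated stallion 1, the lowest on both probes. Without that animal the difference was -0.89 for probe A and -0.22 for probe B. The arrays came from 2 runs of consecutive slide numbers, each holding both groups. In the run of 4 arrays probe A differed by -1.33 and probe B by -0.64, and in the run of 2 arrays by -0.96 and -0.29.

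Of the 5 family probes in the fit, limma's adjusted p over all 24590 probes called 0, against 0.00407% of all probes, which is 1 probe. At an unadjusted p under 0.05 there were 2 of 5, both of INSL3, against 3.29% of all probes. Among all such probes 55.2% were lower, or 93.8% with median scaling and 74.0% with the authors' values. Groups did not overlap for 1 of 5, probe A, against 9.27% of all probes. Because INSL3 was chosen for this contrast, nothing is read from these counts. A difference as low as that of probe A was found for 0.00813% of all probes, which are probe A itself and a probe of the mitochondrial chaperonin HSPE1, whose groups overlapped.

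The ratio of the INSL3 probes within an animal separated the groups more cleanly than either probe. Probe A over probe B was 1.69, 1.85 and 1.80 in controls 1, 2 and 3, and 1.05, 1.09 and 1.12 in treated stallions 1, 2 and 3. The ratio was thus nearly constant within a group, also in treated stallion 1, where both probes were lowest, and the groups were far apart. Means were 1.09 ± 0.04 with dexamethasone and 1.78 ± 0.08 in controls (SD, n = 3 each). Treated stallions 2 and 3 and control 2 had nearly the same probe B value (24.6, 27.3 and 25.4), while their probe A values were 26.9, 30.5 and 47.0. So animals alike on 1 probe were unlike on the other.

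The gap between the 2 probes' differences was -0.68 on the log2 scale, -0.69 in the first run of slides and -0.68 in the second, and -0.66 to -0.72 when 1 array at a time was left out. It was -0.86 when computed from the deposited spot medians less background. The within-group SD of the log2 ratio was 0.06. Copies of 1 bright control probe on the same array had a median SD of 0.16 on the log2 scale. An SD of 0.06 from so few animals is therefore no measure of the precision of the ratio. Both probes are annotated with the same human reference transcript. Probe sequences were not used here, so where each binds the horse transcript was not examined, and the ratio shows unequal change of the probes, not which of them follows the transcript more closely.

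This comparison was added after the values were seen, and its gap is built from the INSL3 difference on which the family was selected, so its place among other genes is a description only. It was set beside all pairs of probes that share a gene symbol and were above background on all 6 arrays. There were 978 such pairs from 812 genes. Their probes' differences lay a median of 0.11 apart on the log2 scale, and 95% of pairs lay within 0.34. Over all pairs the median within-group SD of the log2 ratio was 0.18, and the ratio separated the groups in 8.49% of pairs. Only 7 pairs, 0.716%, lay as far apart as the INSL3 pair or farther, namely pairs of ACTN4, TSPAN3 (2 pairs), TMEM216, GNG5, BCL11A and INSL3 itself. Among these 7, the within-group SD of the log2 ratio was 0.06 for the INSL3 pair and 0.22 to 0.96 for the others. As said above, an SD of 0.06 from so few animals is no measure of precision, so nothing is read from this rank. Of the 139 pairs annotated with the same transcript, 2 lay as far apart, INSL3 and a TSPAN3 pair whose groups overlapped.

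**Figure D3:**
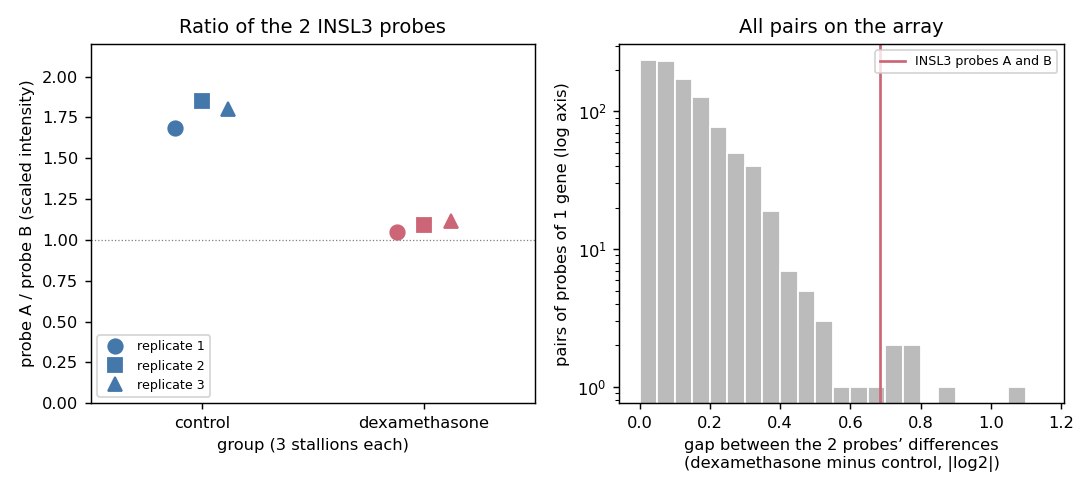
Left, the ratio of INSL3 probe A to probe B (scaled intensity, axis from 0) in each stallion, with 1.69 to 1.85 in controls and 1.05 to 1.12 after dexamethasone. Right, how far apart the dexamethasone minus control differences (log2) of 2 probes of 1 gene lay for all 978 pairs (count on a log axis), with the INSL3 pair marked at 0.68.

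INSL6, the germ cell peptide, had values that overlapped between the groups. Its scaled intensity was 4.13, 4.63 and 3.87 in the controls and 3.54, 4.45 and 3.73 in the treated stallions. Treated animals held both the lowest and the second highest value. The means were 3.91 ± 0.48 with dexamethasone and 4.21 ± 0.38 in controls (SD, n = 3 each). On the log2 scale the difference was -0.04 ± 0.10 (SE) with a 95% interval from -0.27 to 0.18. A difference of the size of probe A of INSL3 lies outside that interval, but the offset of the background correction compresses differences this close to background.

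The relaxin peptides gave no usable signal. RLN2 was listed at 0.118, -0.147 and 0.258 in the controls and at 0.288, 0.0678 and 0.264 in the treated stallions, on the scale where the array median is about 1. RLN3 read 0.382, -0.0867 and 0.122 in the controls and 0.0629, 0.162 and 0.376 in the treated animals. Both lay below the noise level of their spots on all 6 arrays, with values at or near 0 in both groups, so no difference is given. Human RLN1 and RLN2 are closely related genes. Whether the RLN2 probe would also bind RLN1, or the horse gene RLN, was not examined.

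RXFP2, the receptor of INSL3, was read at low level with groups that overlapped. Its scaled intensity was 3.42, 3.12 and 4.36 in the controls and 3.20, 3.95 and 4.91 in the treated stallions. The highest value was that of treated stallion 3 and the lowest that of control 2. The means were 4.02 ± 0.86 with dexamethasone and 3.63 ± 0.65 in controls (SD, n = 3 each). The log2 difference was 0.11 ± 0.11 (SE), with a 95% interval from -0.14 to 0.36, and was 0.11 in each run of slides. The receptor and its ligand thus lay on opposite sides of 0, with the receptor's interval including 0.

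RXFP1, the relaxin receptor, was read by 1 of its 3 probes. That probe (414087) gave 1.88, 1.24 and 1.64 in the controls and 1.67, 1.86 and 1.67 in the treated stallions, so that the controls enclosed the treated animals. The log2 difference was 0.07 ± 0.09 (SE) with a 95% interval from -0.14 to 0.28. The other RXFP1 probes lay between 0.0798 and 0.598 in all animals, below the noise level of their spots. The 3 probes are annotated with different transcripts or tags, so the RXFP1 signal rests on 1 probe near background.

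**Figure D4:**
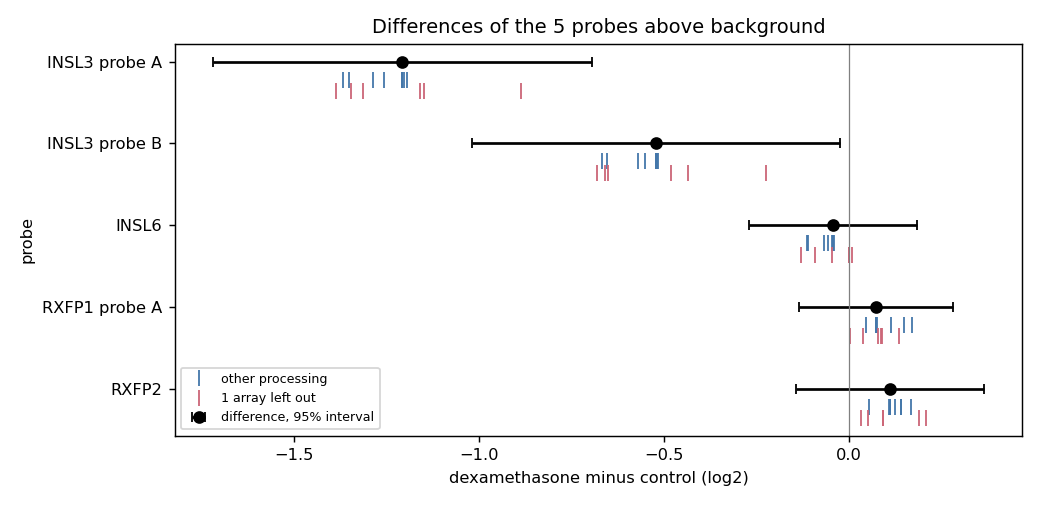
Dexamethasone minus control (log2) for the 5 family probes above background, with points and 95% intervals from the fit of all probes (n = 3 stallions per group). Blue ticks are the same difference under other processing and red ticks with 1 array left out. The INSL3 points lie at -1.21 and -0.52, and those of INSL6, RXFP1 and RXFP2 between -0.04 and 0.11. The family was selected on the INSL3 difference, so the plot is a description.

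The other genes of the pathway were read from 6 lists of 60 genes, of which 34 were in the fit. Of these 34, limma's adjusted p called 0, against 0 of all 10604 genes tested and 0.00407% of all probes. Only 1, INS, had an unadjusted p under 0.05, against 3.29% of all probes. The groups did not overlap for 4 of 34, INS, IGF2R, GNAI2 and NR4A1, against 9.27%. There were 19 lower and 15 higher, with a median difference of -0.03 on the log2 scale, where all 10604 genes tested had a median of -0.01 with 52.7% lower. Their differences ran from -0.18 to 0.29, and both INSL3 probes lay below all 34. The family was selected on the INSL3 difference, so this placement is a description only.

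Among other ligands of the superfamily, 2 of 5 were tested. INS, insulin, had a difference of 0.22 ± 0.10, and IGF1 one of -0.07 ± 0.12 (log2, SE). IGF2, INSL4 and INSL5 were not above background on enough arrays. Of the receptors, RXFP3, the receptor of RLN3, gave -0.18 ± 0.16, and its other probe -0.03. IGF2R, which clears IGF2, gave 0.11 ± 0.08, IGF1R -0.04 ± 0.10 and INSRR, an insulin receptor relative, -0.03 ± 0.10. RXFP4 had no probe among these and INSR was not above background on enough arrays. Prohormone convertases cut propeptides such as those of the family. FURIN gave 0.07 ± 0.14 and PCSK5 -0.07 ± 0.10, and 4 others with a probe were not tested. FURIN, PCSK5 and IGF1 differed in sign between the runs of slides.

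Of 19 genes that couple the receptors to cAMP, 16 were tested, 8 lower and 8 higher, with a median of -0.01. GNAO1, a G protein alpha subunit, gave 0.27 ± 0.13, but its other probe -0.04. The adenylyl cyclases ADCY9, ADCY1 and ADCY2 gave -0.15 ± 0.13, -0.11 ± 0.11 and -0.10 ± 0.09. GNAI2, an inhibitory alpha subunit, gave 0.12 ± 0.08, and GNAS, the stimulatory one through which RXFP2 raises cAMP, -0.07 ± 0.11 (log2, SE). ADCY9 was -0.32 in the first run of slides and 0.19 in the second, and ADCY1, with 2 treated values, -0.27 and 0.10, so the sign of both rests on the run.

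Of 18 genes known to act on INSL3 transcription or on the Leydig cell upstream of it, 9 were tested, 6 lower and 3 higher, with a median of -0.05. NR3C1, the glucocorticoid receptor gene, gave -0.16 ± 0.19, with -0.38 in the first run of slides and 0.27 in the second. NR4A1 and NR4A3, orphan nuclear receptors, gave -0.06 ± 0.08 and 0.13 ± 0.09. GATA4, a zinc finger factor of the gonad, gave -0.08 ± 0.09 with -0.15 on its other probe, and NR2F1 0.29 ± 0.29 with -0.03 on its other probe (log2, SE). LHCGR, the receptor through which LH acts on Leydig cells, gave -0.08 ± 0.09. NR5A1, a main activator of Leydig genes, was among 6 genes with a probe not above background on enough arrays, and NR0B1 and NR2F2 had no probe with 1 symbol. JAK3, next to INSL3 in the horse gene table, gave 0.00 ± 0.11, and JAK1, JAK2 and TYK2 were not tested. The differences of NR4A3, GATA4 and JAK3 also changed sign between the runs of slides.

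Leydig cell markers other than INSL3 were set beside it. Of 12 listed, 8 were tested, 4 lower and 4 higher, with a median of -0.03. On the brightest probe of each gene the differences ran from -0.17 to 0.08. HSD3B2 gave -0.17 over 2 treated values, SCARB1 -0.17, LHCGR -0.08 and PRLR -0.06. CYP11A1 gave 0.08 over 2 control values, CYP19A1 0.07, STAR 0.01 and CYP17A1 0.00 over 2 values per group. The other STAR probes gave -0.12 and 0.19, and those of PRLR -0.07 and -0.02. SCARB1, CYP19A1 and STAR differed in sign between the runs of slides. Only 4 of them, LHCGR, STAR, CYP19A1 and PRLR, were usable on all 6 arrays. Their scaled intensities, summed, were 176 to 206 in the treated stallions and 196 to 217 in the controls, ranges that overlap. Most of that sum is LHCGR, at 155 to 186 and 176 to 196, and the other 3 markers summed to 17.0 to 20.8 and 19.2 to 20.6. HSD17B3, NR5A1 and FDX1 were not above background on enough arrays, and HSD3B1 had no probe with 1 symbol. Most of these enzymes were dim, and the part of Leydig cell number in the INSL3 difference was not tested.

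Markers of the other cells of the testis were also read. Of their 23 tested genes, limma's adjusted p called 0, against 0 of all 10604 genes tested and 0.00407% of all probes. At an unadjusted p under 0.05 there were 3, against 3.29% of all probes. MYLK, a myosin kinase of peritubular myoid cells, gave -0.22 ± 0.08 with groups that did not overlap, and -0.21 on its other probe. CLDN11, a tight junction gene of Sertoli cells, gave 0.48 ± 0.13 without overlap over 2 control values, and 0.04 on its other probe. TEKT2, a flagellar gene of germ cells, gave 0.34 ± 0.14 (log2, SE), with 0.55 in the first run of slides and -0.06 in the second. These 3 had the largest absolute difference of their lists. Of the 9 Sertoli cell genes 5 were lower, INHA most at -0.21 ± 0.23, with -0.50 in the first run and 0.36 in the second. Of the 7 germ cell genes 2 were lower, SYCP1 most at -0.15 ± 0.13. ACTA2 of the peritubular myoid list gave -0.02 ± 0.10. The endothelial genes PECAM1, VWF and CDH5 gave -0.11, -0.08 and -0.03, and the macrophage genes CD68 and MRC1 gave 0.10 and 0.06. Of the 23 genes, the groups did not overlap for MYLK, CLDN11 and MRC1, against 9.27% of all probes. ACTA2, VWF and CD68 differed in sign between the runs of slides. The medians were -0.02 for Sertoli, 0.01 for germ cell, -0.12 for peritubular myoid, 0.08 for macrophage and -0.08 for endothelial markers. The part of these cells in the INSL3 difference was not tested.

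**Figure D5:**
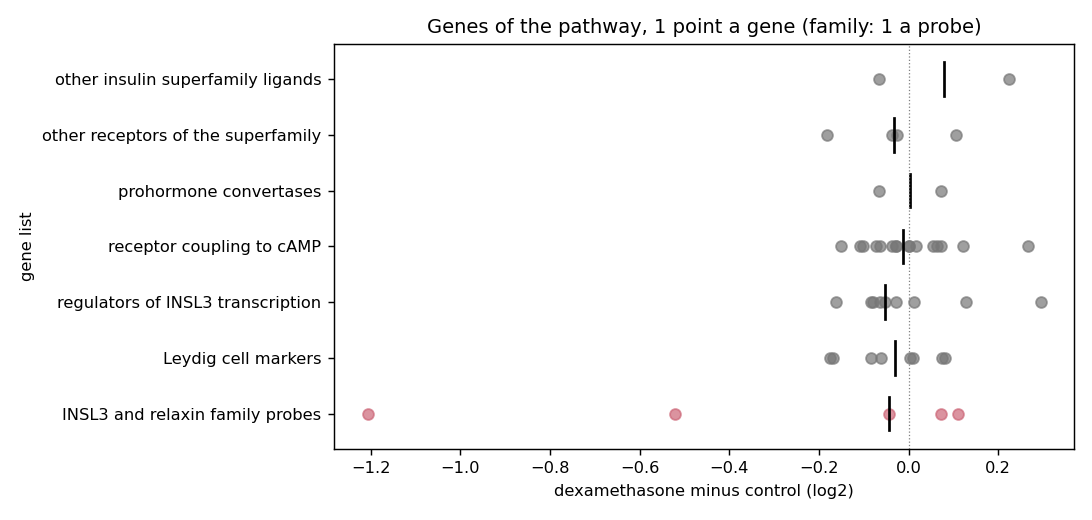
Dexamethasone minus control (log2) for the genes tested in 5 of the pathway lists and for Leydig cell markers, 1 point per gene, with the family shown as 1 point per probe and black ticks as medians. Genes of the lists lie between -0.18 and 0.29, while the INSL3 probes lie at -1.21 and -0.52. The family was selected on the INSL3 difference, so the plot is a description.

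The genes whose log2 values over the 6 arrays lay nearest to those of INSL3 probe A were found by the root mean square distance of profiles centred on their own mean, over 11010 other probes with 1 symbol and 6 values. The nearest were CCDC138 at a distance of 0.25, GSTA3 at 0.33, GCA at 0.36, ACTN4 at 0.38 and PTGDS at 0.39. The distance of INSL3 probe B was 0.35, with 2 probes nearer, and the median over all probes was 0.70. A flat profile has a distance of 0.69, the spread of probe A itself, which is the scale against which these distances can be read.

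CCDC138 was at 11.07 ± 0.65 with dexamethasone and 11.79 ± 0.20 in controls (log2 level, SD, n = 3 each), lowest in treated stallion 1 at 10.32. GSTA3, a glutathione transferase that also isomerises steroid precursors, was at 8.12 ± 0.38 and 8.78 ± 0.11, and again lowest in treated stallion 1 at 7.69. PTGDS, the lipocalin-type prostaglandin D synthase, was at 12.88 ± 0.61 and 13.42 ± 0.12 with groups that overlapped, and its lowest value, 12.23, was also that of treated stallion 1. GCA, the calcium-binding grancalcin, and ACTN4, an actin crosslinker, differed by -0.94 and -1.08, and by -0.84 and -1.05 without treated stallion 1. Without that animal CCDC138 went from -0.72 to -0.34, GSTA3 from -0.66 to -0.45 and PTGDS from -0.54 to -0.22. The groups did not overlap for CCDC138, GSTA3, GCA and ACTN4. The other ACTN4 probe differed by 0.01 and the other PTGDS probe by -0.06. These 5 genes were picked for their likeness to INSL3, so their differences are no separate evidence.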

How the data were processed

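Each stallion's RNA was read on a 1-colour human CodeLink array with 54990 spots, per the labels. The authors deposited for each spot a mean intensity, a background median, a scaled intensity and a quality flag. From the values, the scaled intensity is the background-subtracted intensity over 1 constant per array. A further column is a signal strength score, spot mean over spot noise, per the file headers. Scanner software is not given in the sources used here.

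Spots flagged M, C, I or P were treated as missing and control probes were left out. Spot mean and background were corrected with normexp (offset 50) and quantile normalised on the log2 scale (limma 3.58.1, R 4.3.3). Python 3.11.15 and matplotlib 3.10.9 made the figures. Probes above background on at least 3 arrays with at least 2 values per group were fitted with lmFit and eBayes, dexamethasone against control, without covariates, two-sided and with Benjamini-Hochberg adjustment over 24590 probes. The fit was tested on simulated data. Groups came from the labels. Replicate numbers only name animals.

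The gene list, the pathway lists and the alternatives were chosen with earlier results of these data known. Named genes are all member probes, the 5 genes nearest to INSL3 probe A, and in each pathway list up to 6 tested genes in order of absolute difference. Of the Sertoli and germ cell markers, those with the largest difference in each direction are named. All tested Leydig cell, peritubular myoid, endothelial and macrophage markers are named. The brightest tested probe stands for a gene in a list. The comparison of the INSL3 probes was added after seeing their values. Gene symbols are those of the platform annotation, which gave exactly 1 symbol to 23472 probes.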

Additional observations from a re-analysis of the deposited data

How the results depend on the processing

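The alternatives were other background corrections, other normalisations, the authors' scaled intensity, other filters, the slide run as a block, trend and robust eBayes, spots flagged C, I or P kept, and leaving out each array in turn. INSL3 probe A was lower in 16 of 16 of them, from -1.37 to -1.19 over the processing settings and from -1.39 to -0.89 with 1 array left out. Its groups did not overlap in any of them. Leaving out an array, or changing only the filter or the model, cannot make separated groups overlap, so only the other settings bear on this. Probe B was lower in 16 of 16, from -0.67 to -0.52 and from -0.68 to -0.22, and its groups did not overlap in 2. The gap between the probes stayed between -0.72 and -0.66 under these alternatives and was -0.86 from spot medians. The authors' scaled intensity gave -0.71. For this ratio it differs from the former only in taking the spot mean for the spot median. Why spot medians gave a wider gap was not tested. RXFP2 and RXFP1 stayed above 0 in 16 of 16, while INSL6 was below 0 in 13 and at most 0.01 in the other 3. Probes called over the whole array numbered 1, falling to 0 for trend and robust eBayes, for plain subtraction of background and for the strictest filter (6 arrays), and 0 to 1 with 1 array left out (0 without control replicate 1 or 3). At an unadjusted p under 0.05 there were 808, 1798 with median scaling and 2073 with no filter, which tests 52902 probes. The median difference of all probes tested was -0.01, -0.08 with median scaling and -0.07 with the authors' scaled intensity. Groups that do not overlap numbered 2279, 3589 with median scaling, 5290 with no filter and 3941 to 4768 with 1 array left out, where fewer values per probe separate more easily. Other causes were not tested. No paired analysis was possible because the labels give no numbers that the groups share. Signal over background limits INSL6, RXFP1 and RXFP2, whose differences the offset compresses. With plain subtraction RXFP1 differed by 0.17, RXFP2 by 0.17 and INSL6 by -0.07.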
